A study of Mus musculus with 6 samples.

Results

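Broad accessible regions were examined in dermal fibroblasts, the matrix-producing cells of mouse skin. A peak counted as broad when it lay on an autosome and was 3000 bp or wider, which 1629 of all 204204 called peaks were. Of these, 684 were called in Lap2alpha KO cells and 945 in WT cells. The members were chosen on their called width, so their widths are given as a description and no test was made on them.

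The KO cells lack Lap2alpha, a splice form of lamina-associated polypeptide 2 encoded by Tmpo, and the WT cells are the wildtype dermal fibroblasts they were set against. Each genotype was profiled in 3 ATAC-seq libraries, and the labels give neither the allele nor whether the libraries came from separate animals or cultures. The deposited peaks form 1 combined list per genotype, so there is no spread between replicates, no library can be left out, and the depth of each library is unknown. The comparison asks how accessible chromatin differs when Lap2alpha is missing.

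In ATAC-seq the Tn5 transposase inserts adapters where DNA is not shielded by nucleosomes, and a peak is a stretch with more insertions than its surroundings. Most open sites are a single gap between nucleosomes at a promoter or enhancer. Wide open stretches are known from promoters of heavily transcribed genes, clusters of enhancers and the bodies of highly transcribed short genes. Lap2alpha binds A-type lamins in the nuclear interior, away from the lamina, and with them the retinoblastoma protein.

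The promoters shown here are examples from the 26 under broad loci that hold a CArG box, the binding motif of serum response factor. This motif was chosen because its share of promoters differed most in proportion between broad and narrower loci among the 10 motifs searched. Those shown belong to Srf or to genes tied to actin or myosin, while the 26 also include H2bc3, Rpl10a, Aprt and Tyw1. Each printed promoter runs from 250 bases before to 50 bases after a RefSeq gene start on GRCm38.p6. It reads 5′ to 3′ on the strand of the gene and has each CArG box in capitals. Actg1 encodes gamma actin (chr11:120348446-120348745, minus strand), Srf encodes serum response factor itself (chr17:46556113-46556412, minus strand), and Vcl encodes vinculin, which links integrins to actin (chr14:20929148-20929447, plus strand). All 3 lay in loci that were broad in both lists.
Actg1 promoter: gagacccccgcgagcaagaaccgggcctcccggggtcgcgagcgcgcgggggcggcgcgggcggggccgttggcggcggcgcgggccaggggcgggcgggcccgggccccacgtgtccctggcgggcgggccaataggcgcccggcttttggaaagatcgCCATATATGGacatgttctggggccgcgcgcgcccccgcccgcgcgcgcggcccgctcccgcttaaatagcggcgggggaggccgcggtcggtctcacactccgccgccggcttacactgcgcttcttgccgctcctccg
Srf promoter: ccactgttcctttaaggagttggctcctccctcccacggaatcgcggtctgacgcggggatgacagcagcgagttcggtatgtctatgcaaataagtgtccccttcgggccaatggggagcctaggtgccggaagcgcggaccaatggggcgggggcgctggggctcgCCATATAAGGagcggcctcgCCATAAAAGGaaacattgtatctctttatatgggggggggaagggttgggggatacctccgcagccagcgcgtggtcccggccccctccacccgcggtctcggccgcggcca
Vcl promoter: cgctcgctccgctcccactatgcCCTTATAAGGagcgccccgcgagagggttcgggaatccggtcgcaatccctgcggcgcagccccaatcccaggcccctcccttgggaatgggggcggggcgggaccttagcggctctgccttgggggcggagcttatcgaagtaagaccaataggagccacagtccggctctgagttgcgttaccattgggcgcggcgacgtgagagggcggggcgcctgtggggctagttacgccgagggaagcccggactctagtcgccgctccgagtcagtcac

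Cnn2 encodes the actin-binding protein calponin 2 (chr10:79988350-79988649, plus strand) and Rnd3 an atypical small GTPase that counteracts stress fibres (chr2:51149062-51149361, minus strand). Their loci were broad in KO only. Myl6 encodes a light chain of non-muscle myosin (chr10:128492960-128493259, minus strand) and lay in a locus broad in WT only.
Cnn2 promoter: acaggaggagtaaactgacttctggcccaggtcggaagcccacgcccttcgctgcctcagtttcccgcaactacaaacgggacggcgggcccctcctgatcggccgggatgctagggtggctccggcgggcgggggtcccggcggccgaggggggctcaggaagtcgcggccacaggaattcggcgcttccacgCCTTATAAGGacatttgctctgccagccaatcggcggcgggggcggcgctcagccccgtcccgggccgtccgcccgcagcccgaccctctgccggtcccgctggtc
Rnd3 promoter: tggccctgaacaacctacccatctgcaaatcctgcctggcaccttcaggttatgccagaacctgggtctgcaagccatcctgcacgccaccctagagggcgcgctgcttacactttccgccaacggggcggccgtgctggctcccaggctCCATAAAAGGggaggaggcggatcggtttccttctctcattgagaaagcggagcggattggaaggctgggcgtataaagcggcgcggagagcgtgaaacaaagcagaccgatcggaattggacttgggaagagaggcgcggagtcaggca
Myl6 promoter: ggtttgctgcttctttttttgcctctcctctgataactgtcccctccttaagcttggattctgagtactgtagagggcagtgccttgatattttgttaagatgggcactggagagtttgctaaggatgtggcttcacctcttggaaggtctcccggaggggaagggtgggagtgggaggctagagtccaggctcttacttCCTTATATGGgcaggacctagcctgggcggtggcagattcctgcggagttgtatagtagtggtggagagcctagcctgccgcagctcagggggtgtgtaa

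Srf held 2 CArG boxes within these bases, whose first bases lay at -82 and -62 from the start, and the other promoters held 1 each. The box began 90 bases before the start in Actg1, 56 before it in Cnn2 and 227 before it in Vcl. The Myl6 window had an observed to expected CpG ratio of 0.199 and the Actg1 window one of 1.12, which is the number of CpG dinucleotides over that expected from the C and G content.

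MicroRNA genes also lay on broad loci. Of the RefSeq hairpins, 22 fell inside 21 broad loci. A microRNA gene thus lay in 1.85% of broad loci, against 0.807% of the shorter loci of 2 to 3 kb and 0.305% of those of 1 to 2 kb. These shares are per locus and not scaled to length, and longer loci have more room for a gene. The mature strands below belong to those best known from fibroblasts and development, with bases 2 to 8, the seed that pairs with target messages, in capitals. Mir21a, a microRNA abundant in fibroblasts, lies at chr11:86584067-86584158 next to the end of its neighbour Vmp1, and Mirlet7b, a member of the let-7 family, lies at chr15:85707319-85707403. Mir615 lies within the Hoxc cluster at chr15:103014910-103015001, and Mir199a-1 lies within Dnm2 at chr9:21496495-21496564. Mir29a, whose family targets collagen messages, lies at chr6:31062660-31062747 and outside a broad locus, at 1933 bp from one of the widest. No seed was shared among these 5 strands. The locus of Mirlet7b was 3181 bp wide in KO and 3224 bp in WT, that of Mir615 3050 bp in KO and 1822 bp in WT, and that of Mir199a-1 2457 bp in KO and 4411 bp in WT.
mmu-miR-21a-5p: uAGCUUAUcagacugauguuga
mmu-let-7b-5p: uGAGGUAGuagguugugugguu
mmu-miR-615-3p: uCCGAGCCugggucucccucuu
mmu-miR-199a-5p: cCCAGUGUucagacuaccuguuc
mmu-miR-29a-3p: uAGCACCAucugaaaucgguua

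Broad peaks were 0.719% of the 95112 autosomal peaks in KO (95% exact binomial interval 0.666 to 0.775) and 0.925% of the 102175 in WT (0.867 to 0.985). These intervals cover counting error only. In both lists they were few but long, covering 4.06% of all called bases in KO and 5.28% in WT. Their median width was 3462 bp in KO and 3477 bp in WT, against 471 bp and 443 bp over all peaks of the KO and WT lists. Most were little wider than the limit: 519 KO and 706 WT peaks were under 4000 bp, 50 KO and 69 WT peaks reached 5000 bp, and 5 in each list reached 10000 bp. Just inside the limit, KO peaks of 3000 to 3009 bp faced WT peaks of 1710 to 3522 bp, and WT peaks of 3000 to 3003 bp faced KO peaks of 2263 to 3142 bp. Just outside it, the 5 KO peaks up to 4 bp short of the limit faced WT peaks of 2792 to 3808 bp, and the 5 such WT peaks faced KO peaks of 1646 to 3066 bp.

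Overlapping peaks of the 2 lists were joined into loci, and the widest peak of a list within the locus was taken as its width there. Of 112168 autosomal loci, 1136 were broad: 489 in both lists, 194 in KO only and 453 in WT only, which is 0.436%, 0.173% and 0.404% of all loci. The loci broad in both were 71.6% of the 683 that were broad in KO and 51.9% of the 942 that were broad in WT. Of the 1136 loci, 1132 had a peak in each list, so a locus broad in 1 list was nearly always called in the other as well. The median distance between the summits of the KO and WT peaks was 17 bp, and 70.6% lay within 100 bp. Over all 78883 loci called in both lists the median was 11 bp and 91.5% lay within 100 bp. Of these, 59491 had a geometric mean of the 2 widths under 1000 bp, which leaves little room for distant summits. By that mean, the share within 100 bp fell with width, from 93.8% under 1000 bp to 85.5% at 1 to 2 kb. It was 80.02% at 2 to 3 kb and 73.1% at 3000 bp or more, so the decline was not particular to broad loci. In divided loci the distance was taken between the widest peaks, which need not cover the same bases.

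**Figure D1:**
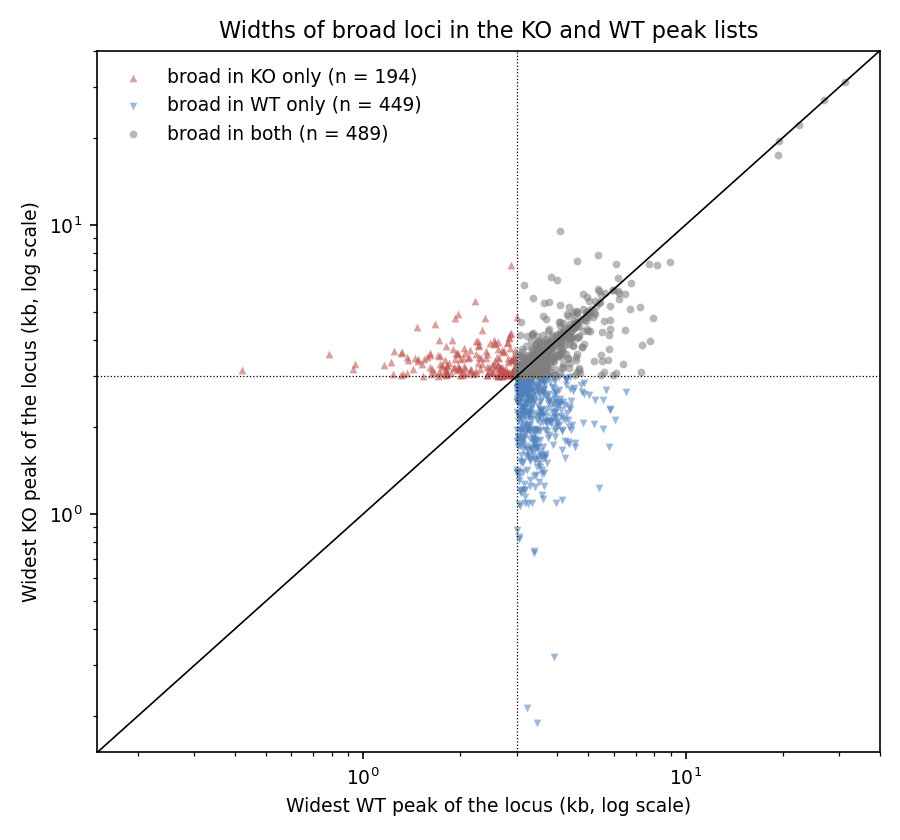
Width of the widest KO peak (y axis) against that of the widest WT peak (x axis), in kb on log scales, for the 1132 broad loci with a peak in both lists; dotted lines mark 3 kb and the solid line equal widths. The widest loci, near 20 to 31 kb, lie on or close to the line of equal widths, and loci broad in WT only outnumber those broad in KO only.

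Loci broad in 1 list were mostly split into pieces in the other. Of the 194 loci broad in KO only, 150 (77.3%) were covered in WT by 2 or more narrower peaks and 44 by a single peak. Of the 453 broad in WT only, 307 (67.8%) were covered in KO by 2 or more peaks, 142 by a single peak and 4 by none. The gaps between such pieces were short, with a median of 139 bp among the WT pieces of loci broad in KO only and 152 bp among the KO pieces of loci broad in WT only. In neither list did neighbouring peaks lie closer than 101 bp. Where only KO was broad, all WT pieces together covered a median of 91.5% of the length covered by the KO peaks. Where only WT was broad, all KO pieces together covered a median of 86.8% of the length covered by the WT peaks.

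By the widest peak, the median log2 KO/WT width was -0.02 over loci broad in both, 0.57 over those broad in KO only and -0.60 over those broad in WT only. By the bases covered by all pieces, the same medians were -0.02, 0.13 and -0.20. Most of the width difference of a locus broad in 1 list thus lay in the division of peaks. Where the call of broadness itself rests on a division, a short gap of fewer insertions and a difference in the caller's joining cannot be told apart in peak lists.

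**Figure D2:**
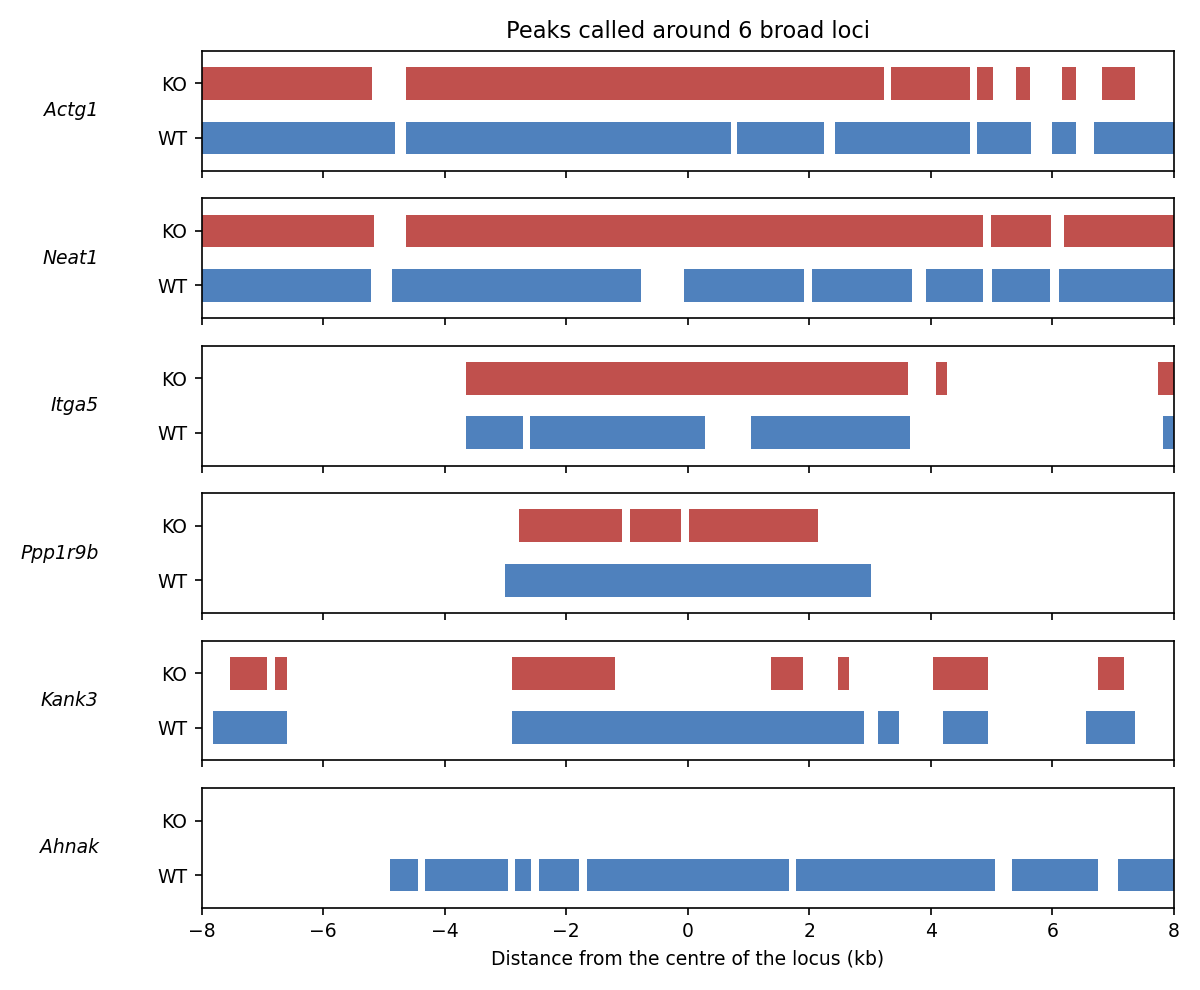
Called peaks in KO (upper row) and WT (lower row) within 8 kb of the centre of 6 broad loci, as distance in kb from the centre. Actg1 and Neat1 are broad in both lists and Itga5 in KO only, with the WT peaks divided; Ppp1r9b and Kank3 are broad in WT only, and the stretch of Ahnak has 8 WT peaks and no KO peak.

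To treat both lists alike, loci called in both were also classed by the geometric mean of their 2 widths. Over the 668 loci with a mean of 3000 bp or more, the median log2 KO/WT width was -0.03, with a 10th to 90th percentile range of -0.55 to 0.19. Of these loci, 6.59% were at least 25% wider in KO than in WT and 17.4% were at least 20% narrower in KO. The background over all 78883 loci called in both was 21.6% and 24.7% for these 2 calls. Both shares were below that background, which was mostly made of the 59491 loci under 1000 bp. Of those, 24.5% were wider in KO and 27.0% wider in WT. At 2 to 3 kb the shares were 8.42% and 15.7%, so the share wider in WT was not lowest in the broad class. Among broad loci by the 3000 bp rule, 149 (13.2%) were wider in KO by this measure, 355 (31.4%) were wider in WT and 628 lay between the limits.

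The wider the locus, the more often it was divided. A single KO peak met a single WT peak at 63.9% of loci with a mean of 3000 bp or more and at 75.9% of those of 2 to 3 kb. KO had more peaks than WT at 22.3% of loci of 3000 bp or more, and WT had more than KO at 10.2%. With 1 peak in each list, 427 loci with a mean of 3000 bp or more had a median log2 KO/WT width of -0.02. Their 10th to 90th percentile range was -0.17 to 0.09. By the 3000 bp rule, 554 broad loci had 1 peak in each list, with a median of -0.03 and a range of -0.26 to 0.11. Of these 554, 142 were broad in WT only and 44 in KO only, and 29.1% had both edges within 100 bp. Most undivided broad loci thus had similar widths in both lists, with large exceptions such as Pi15 (189 bp in KO, 3466 bp in WT).

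**Figure D3:**
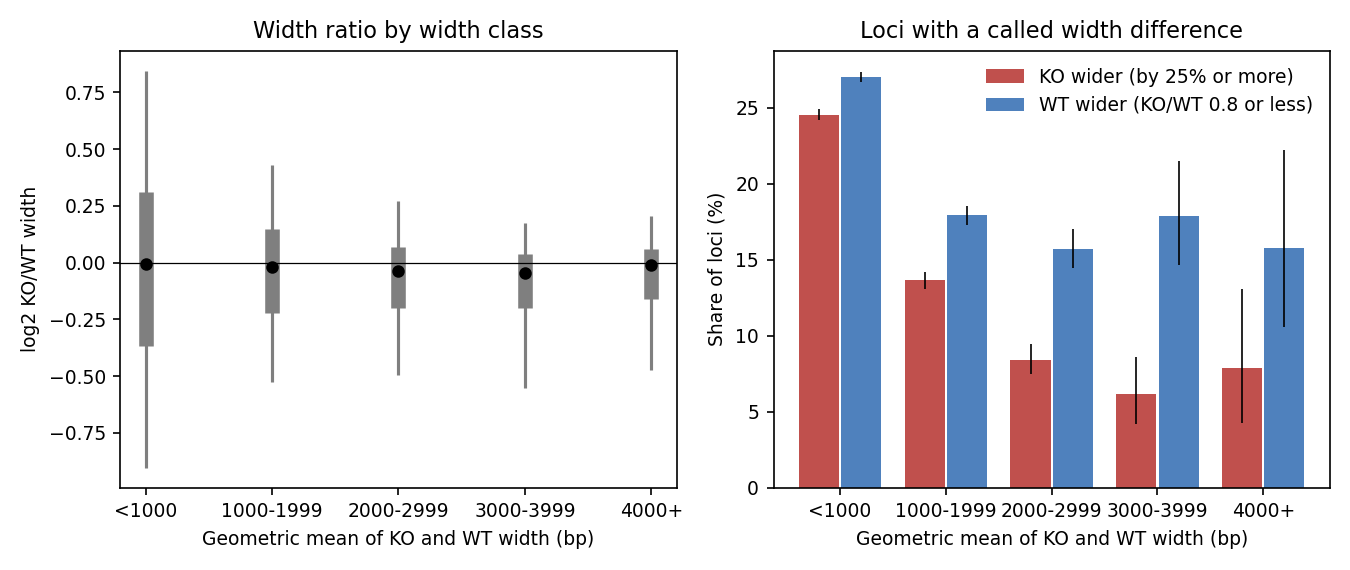
Left, log2 KO/WT width of loci called in both lists, by the geometric mean of the 2 widths (dot, median; thick bar, quartiles; thin bar, 10th to 90th percentile). Right, share of loci at least 25% wider in KO and of loci at least 20% narrower in KO, with 95% exact binomial intervals; the spread narrows with width, and WT is the wider list more often in each class.

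The very widest loci, on chromosomes 11 and 9, were not at ordinary promoters. In all, 3 blocks on chromosome 11, within and beside Sfi1 (a centrosomal protein gene), were 31101, 22149 and 19434 bp wide in KO and 31120, 22406 and 19469 bp in WT. A stretch near the start of chromosome 9, chr9:3011389-3038353, was 26965 bp wide in KO and 26925 bp in WT. Its nearest protein-coding gene was Alkbh8, at 296878 bp. The ribosomal RNA repeat at chr17:39842940-39848886, a much narrower stretch, was 5947 bp wide in KO and 5944 bp in WT. These stretches hold collapsed repeats and are commonly masked in work on this build. Their widths were close in both lists. Leaving out the 8 broad loci there, all broad in both lists, changed the counts to 481 broad in both, 194 in KO only and 453 in WT only.

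The genes of 2 nuclear long non-coding RNAs, Malat1, a component of nuclear speckles, and Neat1, the scaffold of paraspeckles, lay in the run with the most broad loci, 6 within 20 kb of the next. On chromosome 19, these loci between 5791746 and 5852702 covered 81.7% of the 60957 bp in KO and 80.99% in WT. The block over Neat1 and the end of Frmd8 was 17500 bp wide in KO and 19335 bp in WT. A second block over Neat1 was called as 1 peak of 9501 bp in KO and as 4 peaks, the widest of 4089 bp, in WT. The pieces there covered 9501 bp in KO and 8649 bp in WT. The Neat1 block of 4792 bp in KO, against 2995 bp in WT, was broad in KO only, although its 2 WT pieces covered 4829 bp.

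Vmp1, which encodes an autophagy protein, and its neighbour Mir21a shared a locus of 7466 bp in KO and 8925 bp in WT. The locus near Mir29a and Klf14 was 7271 bp wide in KO and 8173 bp in WT. Actg1 measured 7877 bp in KO and 5344 bp in WT, the KO list having 2 and the WT list 3 peaks that covered 9180 and 8998 bp. Here the direction turned when peaks under 500 bp apart were joined first, to a log2 KO/WT width of -0.71, because the joined WT block reached further. Brd2, a bromodomain protein gene, was 7350 bp wide in KO and 7677 bp in WT.

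Loci broad in KO only were led by Itga5, the alpha chain of the fibronectin receptor, with 7282 bp in 1 KO peak and 2878 bp in the widest of 3 WT peaks. The WT peaks there covered 6419 bp. Trio, a guanine nucleotide exchange factor gene, held 4 broad loci, all broad in KO only. They were 5440, 3653, 3228 and 3202 bp wide in KO and 2232, 1251, 1912 and 1980 bp in WT. The first of them showed no wider KO call once peaks under 500 bp apart were joined, with a log2 KO/WT width of -0.12. Lmo4, a LIM-only transcription cofactor gene, was 4922 bp wide in KO and 1970 bp in WT, where 5 pieces covered 4368 bp. Pcdh7, a protocadherin gene, was 4557 bp wide in KO and 1669 bp in WT, where 3 pieces covered 4219 bp. Others among the 10 widest were Tbx3 (4753 bp in KO, 2382 bp in WT), Dbp with Car11 (4324 bp in KO, 2331 bp in WT), Frs2 (4238 bp in KO, 2878 bp in WT), Junos (4768 bp in KO, 1933 bp in WT) and Gm42054 (4420 bp in KO, 1475 bp in WT). The WT pieces covered 4691 bp at Tbx3, 4321 bp at Dbp, 3960 bp at Frs2, 4017 bp at Junos and 2805 bp at Gm42054. With peaks under 500 bp apart joined, the log2 KO/WT width turned to -0.012 at Tbx3 and -0.033 at Dbp.

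A few of these loci also differed in the bases covered. Over Cdh11, the cadherin of mesenchymal cells, KO had 1 peak of 3577 bp and WT had 2 that covered 1245 bp. Beside Dusp4, a MAP kinase phosphatase gene, KO had 3316 bp and the 3 WT peaks covered 1887 bp. An intergenic locus on chromosome 18 was 3149 bp wide in KO and 422 bp in WT, the largest ratio among loci broad in KO only. Its nearest protein-coding gene was Hrh4, at 225225 bp. Zmym2, a zinc finger gene, was 3170 bp wide in KO and 928 bp in WT, but its 4 WT pieces covered 2555 bp.

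Loci broad in WT only were led by a cluster of 4 tRNA genes, chr11:48852695-48859522, with 2653 bp in the widest KO peak and 6533 bp in WT. The 4 KO peaks covered 6467 bp of it. Ppp1r9b, which encodes the actin-binding protein spinophilin, was 2117 bp wide in KO and 6032 bp in WT, with 4638 bp covered in KO. Trim8, a ubiquitin ligase gene, was 2284 bp wide in KO and 5846 bp in WT, with 5176 bp covered in KO. Kank3, of a family of actin regulators, stood out among the 10 widest by coverage: its 3 KO peaks covered 2401 bp and the single WT peak 5784 bp. Next to Errfi1, which encodes an inhibitor of the EGF receptor, the 3 KO peaks covered 2258 bp and the WT peak 5394 bp. Zmiz1, Hsp90ab1 with Slc35b2, Lzts2, Ubtd1 and a locus beside Srsf3 completed the 10 widest, at 1971 to 2686 bp in KO and 5224 to 5839 bp in WT, and their KO pieces covered 3841 to 5159 bp.

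The 3 loci with the smallest KO/WT width ratios had a single short KO peak under a broad WT peak. At Pi15, a peptidase inhibitor gene, KO had 189 bp and WT 3466 bp. In Adgrl3, an adhesion receptor gene, KO had 321 bp and WT 3901 bp. At an intergenic locus 211048 bp from Shox2, KO had 214 bp and WT 3235 bp. The KO summits lay 1, 19 and 34 bp from the WT summits at Pi15, Adgrl3 and the Shox2 locus. The next ratios were at Gm30990, with 733 bp in KO and 3388 bp in WT, and beside Rere, with 743 bp in KO and 3390 bp in WT.

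At 4 loci broad in WT only, no KO peak was called, which is 0.883% of that class against a background of 18.2% of all loci without a KO peak. Each locus broad in KO only had a WT peak, while 11.5% of all loci had none. Of the 4 loci without a KO peak, 2 were neighbours in Ahnak, a gene for a giant scaffold protein, at 3333 and 3265 bp in WT. They were part of 8 WT peaks spanning 14500 bp, chr19:9004029-9018528, inside a stretch of 21591 bp with no KO peak. The WT peaks there were weak for their width: their summit −log10 p was 8.26 and 7.49, below the WT median of 9.99, and their signal per base ranked at percentiles 13.0 and 11.1 of the WT list. Ahnak was also called in KO, at 3 other broad loci of 3084, 4079 and 2662 bp, against 3228, 4011 and 3151 bp in WT. The other loci without a KO peak were in Fhit, a tumour suppressor gene (3979 bp in WT, summit −log10 p 13.7), and Mcmdc2, a meiotic gene (3091 bp, 8.74). The Fhit locus lay in a longer stretch of 154937 bp with no KO peak, which held 6 WT peaks.

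Among loci broad in both lists the width ratios ran between log2 values of -1.23 and 1.22. The largest after Neat1 were Tspan5, a tetraspanin gene, at 6190 bp in KO and 3148 bp in WT, and Ccn1, a matricellular YAP target gene, at 6603 bp in KO and 3818 bp in WT. Cirbp, a cold-inducible RNA-binding protein gene, followed at 5582 bp in KO and 3375 bp in WT, and a locus between Malat1 and Neat1 at 7521 bp in KO and 4595 bp in WT. At the 3 named genes the pieces covered nearly equal lengths, with 6190, 6603 and 5582 bp in KO and 6187, 6652 and 5402 bp in WT. The smallest ratio was at Tnrc18, at 3108 bp in KO and 7285 bp in WT. P4hb, a subunit of the collagen prolyl hydroxylase, was 3294 bp wide in KO and 6401 bp in WT, and Mef2d, a transcription factor gene, 3971 bp in KO and 7768 bp in WT. The KO peaks at Tnrc18, P4hb and Mef2d covered 6566, 6090 and 8065 bp, against 7285, 6401 and 9242 bp in WT. Gm41308 and Rassf1 with Zmynd10 were 3016 and 3087 bp wide in KO and 5957 and 6084 bp in WT.

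Broad loci lay mostly over the ends of genes. An end of a protein-coding gene, its start or its last base, lay within 63.3% of the 1136 loci (95% exact interval 60.4 to 66.1), against 54.3% of loci of 2 to 3 kb, 26.9% of those of 1 to 2 kb and 1.95% of narrower ones. Another 21.4% lay inside a protein-coding gene and 15.3% outside. Gene ends per Mb of locus were 213 in broad loci, 279 in those of 2 to 3 kb and 218 in those of 1 to 2 kb. By class, 58.8% of loci broad in KO only, 61.8% of those broad in WT only and 66.5% of those broad in both held a gene end, with intervals that overlap. Gene starts were used on 18 of the autosomes and not on chromosome 18, which leaves 1105 of the broad loci. Starts of 2 or more genes lay in 16.6% of these 1105 and in 12.6% of 4230 loci of 2 to 3 kb. Around the start of a gene, the widest peaks at loci with a mean of 3000 bp or more reached a median of 1570.5 bp upstream and 1801 bp downstream in KO and of 1619 and 1955 bp in WT.

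**Figure D4:**
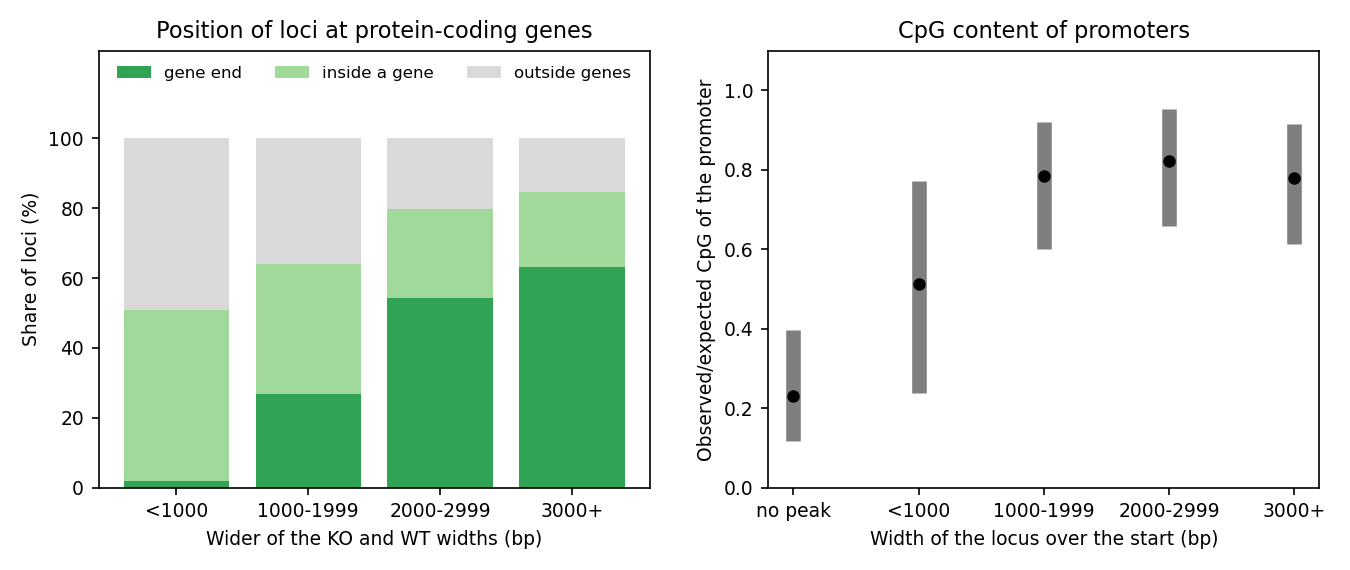
Left, share of loci that hold an end of a protein-coding gene, lie inside one or lie outside, by the wider of the KO and WT widths. Right, observed to expected CpG ratio of promoters with no peak or under a locus of each width (dot, median; bar, quartiles); the gene-end share rises with width to 63.3%, and the CpG ratio is highest at 2 to 3 kb.

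The promoters under broad loci were rich in CpG, but not more so than those under somewhat narrower loci. Their median CpG ratio was 0.780 over 1002 gene starts, against 0.822 under loci of 2 to 3 kb, 0.784 under those of 1 to 2 kb and 0.231 at starts without a peak. Between loci broad in KO only and in WT only it was 0.795 and 0.775. The CArG box, searched on both strands, was found in 26 of the 1002 promoters (2.59%, interval 1.70 to 3.78). It was in 1.19% of those under loci of 2 to 3 kb (0.845 to 1.62) and in 1.57% of all 31396. At starts without a peak the share was 1.78%, which lies within the interval of the broad loci. The intervals treat the windows as independent and do not allow for this motif having been chosen by its difference. They therefore do not test that difference. Some of these windows overlap, as at Actg1 and its divergent neighbour, and the 26 lay in 20 of 650 broad loci over a gene start (3.08%), against 33 of 2263 loci of 2 to 3 kb (1.46%). By class, 4 of 97 loci broad in KO only, 2 of 265 broad in WT only and 14 of 288 broad in both held one.

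The ETS motif CCGGAAG went the other way. It was in 12.4% of promoters under broad loci (10.4 to 14.6), in 18.5% under loci of 2 to 3 kb and in 21.6% under those of 1 to 2 kb, while its share of all promoters was 9.004%. The GC box GGGCGG was in 69.8%, 70.6% and 64.4% of the same 3 classes and in 36.0% of all promoters. A motif match describes the letters of these windows and not the binding of a factor.

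Of the 20665 protein-coding autosomal genes, 1124 (5.44%) overlapped a broad locus. Actin, adhesion and contractile genes were the list with the highest share, 15 of 29 (51.7%). Of these 15, 10 were broad in both, among them Actg1, Pxn (paxillin, 5904 bp in KO and 6163 bp in WT), Actb and Cfl1 (cofilin, 4916 bp in KO and 5035 bp in WT). Itga5, Cnn2 and Tpm4 were broad in KO only, and Tagln2 and Tpm1 in WT only. Tpm4, a tropomyosin gene, differed little, at 3029 bp in KO and 2897 bp in WT. Actb, which encodes beta actin, carried 2 broad loci, of 5421 and 4120 bp in KO and 3766 and 4659 bp in WT.

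The list of immediate-early and AP-1 genes, many of them transcribed within minutes of serum or stress, came next with 13 of 30 (43.3%). Of these, 10 were broad in both, none in KO only, and Fosl1, Ier3 and Sgk1 in WT only. Jun, a subunit of AP-1, was 5111 bp wide in KO and 4813 bp in WT, and Myc, a growth-promoting transcription factor, 5349 bp in KO and 5385 bp in WT. Junb and Jund, relatives of Jun, were narrower in KO, at 5106 and 3401 bp, against 6706 and 5767 bp in WT. Ier2 was 5192 bp wide in KO and 7209 bp in WT. The KO pieces at Junb, Jund and Ier2 covered 6345, 4963 and 6758 bp, so that part of this difference lay in their division.

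Dermal fibroblast and matrix genes were on broad loci in 13 of 39 cases (33.3%). Loci over Pdgfra, Pdgfrb and Vim, which mark fibroblasts, were broad in both lists, at 3503, 4486 and 4131 bp in KO and 4589, 4076 and 3452 bp in WT. Postn (periostin), Lox (lysyl oxidase) and Mmp14 (a membrane-bound matrix protease) were broad in KO only, at 4014, 3012 and 3432 bp in KO and 1715, 1535 and 1481 bp in WT. The WT pieces at these 3 genes covered 3650, 2721 and 3226 bp, so that most of the difference lay in their division. Among those broad in WT only, Col1a1 (the main collagen chain of skin) and Ddr2 (a collagen receptor) were 2594 and 1844 bp wide in KO and 3199 and 3940 bp in WT, and the KO pieces at Ddr2 covered 3372 bp. Cd44, the hyaluronan receptor gene, had 1 locus of each kind: 3659 bp in KO against 2743 bp in WT, and 1774 bp in KO against 4328 bp in WT. All peaks covered 4198 bp in KO and 4417 bp in WT at the former locus, and 2721 and 4328 bp at the latter.

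Of 50 mesenchymal transcription factor genes, 9 (18%) were on broad loci. Tbx15, of the skin and limb T-box factors, was broad in both at 5614 bp in KO and 4946 bp in WT. Tbx3 and Foxc1 were broad in KO only, with Foxc1 at 3366 bp in KO and 1224 bp in WT, where 3 pieces covered 2883 bp. Osr2, En1, Meis2 and Twist2 were broad in WT only, with Osr2 at 1767 bp in KO, where 3 pieces covered 3787 bp, and 4528 bp in WT. Growth factor and YAP pathway genes numbered 7 of 35 (20%), among them Csf1, which encodes a macrophage growth factor, at 7346 bp in KO and 6099 bp in WT. Ankrd1, a YAP target gene, had 2 loci broad in WT only, of 1731 and 2067 bp in KO and 3871 and 3985 bp in WT.

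Genes of the nuclear lamina and envelope, to which other LAP2 forms are anchored, were on broad loci in 3 of 17 cases (17.6%). Lmna, which encodes the A-type lamins, had a locus at chr3:88501353-88504662 of 3310 bp in KO and 3262 bp in WT. A second Lmna locus was broad in KO only, with 3545 bp in KO and 1618 bp in WT, where 3 WT peaks covered 2978 bp. Lmnb1, which encodes lamin B1, was 3101 bp wide in KO and 2889 bp in WT, where 2 peaks covered 3122 bp. Nrm, which encodes nurim, was 3573 bp wide in KO and 3581 bp in WT. The cell cycle gene E2f1, a target of the retinoblastoma protein, was 4734 bp wide in KO and 3686 bp in WT, where 2 peaks covered 4747 bp. Among cell cycle genes 5 of 30 were on broad loci (16.7%). Of chromatin regulator genes 6 of 34 were (17.6%), with Hdac5 and Hdac7 broad in KO only and Ctcf and Hmga1 in WT only. Of housekeeping genes 8 of 28 were (28.6%), including Gapdh at 3537 bp in KO and 3940 bp in WT. Of long non-coding RNA genes 6 of 18 were (33.3%), with Mir22hg at 5387 bp in KO and 3643 bp in WT.

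Lists of markers of other cell types had shares at or near that of all genes, or no member on a broad locus. None of 20 leukocyte, 14 Schwann cell and melanocyte, 15 skeletal muscle, or 17 bone and cartilage genes overlapped one. Of 20 keratinocyte, 15 endothelial and 15 adipocyte genes, 1 each did (5%, 6.67% and 6.67%): Itgb4, Plvap and Lpl, all broad in WT only, at 2533, 2586 and 1838 bp in KO and 3711, 3662 and 3752 bp in WT. The KO pieces there covered 2959, 3025 and 3051 bp. The lists were written with earlier results of these data known, so that their shares are descriptions beside the 5.44% of all genes. The shares count any overlap with a gene and are not scaled to its length. Median gene length was 17491 bp over all genes, 22506 bp in the actin list and 31775 bp in the matrix list. It was 5137.5 bp in the immediate-early and AP-1 list, and ran from 8815 bp (leukocyte) to 42892 bp (endothelial) in the lists of other cell types.

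Groups of short genes in clusters lay on broad loci as well, and these 2 were picked after their values were seen. Of 64 clustered histone genes, whose transcription is tied to DNA replication, 24 (37.5%) lay in 11 broad loci, with 20 genes in loci broad in both lists and 2 each in loci broad in KO only and WT only. On chromosome 3, 4 such loci between 96218895 and 96264868 covered 31.5% of the stretch in KO and 32.5% in WT. Genes for tRNAs numbered 56 in 22 broad loci, or 12.6 per Mb of broad locus against 8.19 per Mb in loci of 2 to 3 kb. A cluster of 7 tRNA genes at chr19:12005185-12013092 was 4781 bp wide in KO and 7906 bp in WT, with 7729 bp covered in KO.

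Broad peaks were unevenly spread over chromosomes. Chromosomes 3, 8, 11, 15, 17 and 19 held 57.0% of the KO and 57.1% of the WT broad peaks, with 32.9% of KO and 33.0% of WT peaks of any width. Peaks of 2 to 3 kb lay between, with 43.6% of KO and 42.7% of WT peaks on these chromosomes, which were chosen after their values were seen. The largest gap between the lists was on chromosome 19, where 1.08% of peaks were broad in KO (0.727 to 1.53) and 2.69% in WT (2.18 to 3.27). There 2 loci were broad in KO only, 66 in WT only and 28 in both. On chromosome 8, 1.19% were broad in KO and 1.81% in WT, with 14 loci in KO only and 61 in WT only. Chromosomes 15 and 18 went the other way, with 1.54% and 0.778% broad in KO and 1.26% and 0.529% in WT. Loci broad in KO only outnumbered those broad in WT only by 28 to 14 on chromosome 15 and by 15 to 5 on chromosome 18.

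**Figure D5:**
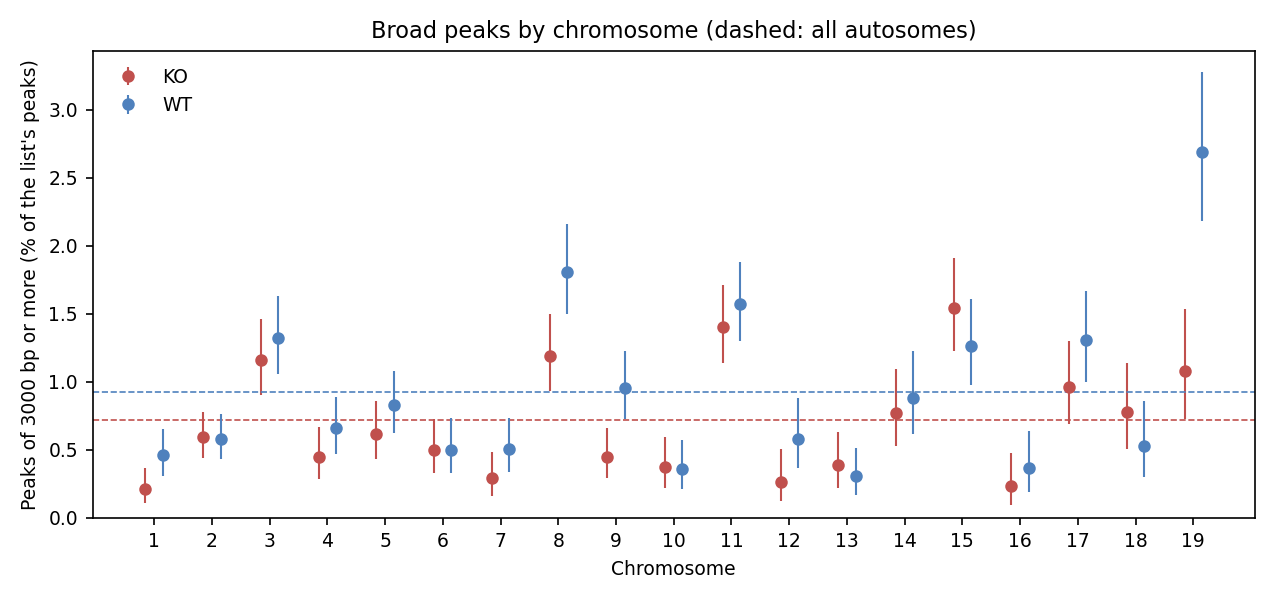
Share of the peaks of each list that were 3000 bp or wider, by chromosome, in KO (left point) and WT (right point), with 95% exact binomial intervals that cover counting error only; dashed lines give all autosomes (KO 0.719%, WT 0.925%). Chromosome 19 shows the widest gap, with 1.08% in KO and 2.69% in WT, and chromosomes 15 and 18 are higher in KO.

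Narrower loci on these chromosomes leaned the same way. Among loci with a geometric mean under 2000 bp, the median log2 KO/WT width was -0.33 on chromosome 19 and 0.18 on chromosome 18, against -0.01 over all autosomes. At 2000 bp or more it was -0.23 on chromosome 19 and 0.12 on chromosome 18, against -0.04 over all. The shift of chromosome 19 was therefore not limited to broad loci, and its cause was not tested. Without chromosome 19, 192 loci were broad in KO only and 387 in WT only.

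Within 20 kb of another broad locus lay 178 of the 1136 (15.7%), and 16 runs held 3 or more. The same share was 22.3% among the 4338 loci of 2 to 3 kb and 55.4% among the 18667 of 1 to 2 kb, classes with more loci. Besides Malat1 with Neat1 and the histone genes, runs covered Fosl1 with Efemp2 and Cfl1 (5 loci), Plec, which encodes the cytoskeletal linker plectin (3 loci), Hexim1 with Hexim2 (3 loci) and Dusp4 (3 loci). The 3 Plec loci were 5893, 5471 and 3169 bp wide in KO and 5388, 5254 and 3282 bp in WT. Of the run over Ahnak, broad and narrower peaks of its 4 loci covered 23.6% in KO and 44.8% in WT, the largest gap in coverage among the 16 runs.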

How the data were processed

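The authors deposited 1 peak list per genotype, combined over 3 libraries, with Bowtie2 2.5.1, Genrich, deepTools 3.5.1 and the build GRCm38 named in the submitters' processing notes. Settings and depth are not given in the sources used here. Each deposited peak has positions, a score that stops at 1000, a signal value and −log10 p and q values at the summit. The signal is an area that grows with width, and was ranked within its own list only. The score and the q were not used.

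Peak width is the end minus the start. Peaks overlapping by at least 1 bp were joined into loci. A locus at least 25% wider in KO than in WT, or at least 20% narrower in KO, was called different. With 1 list per genotype no test was possible. Intervals are 95% exact Clopper-Pearson intervals for counting error. Gene spans, promoters and microRNAs are from RefSeq on GRCm38.p6; gene starts were known for 79.6% of protein-coding autosomal genes, and other gene ends were used without strand. Broad peaks on sex chromosomes (18 in KO, 29 in WT) were left out. For each class, the text names the 10 widest loci and the 5 largest ratios in each direction, plus up to 4 members of each of 17 gene lists, with some others named after their values were seen. The members, lists and rules were chosen with earlier results of these data known. Alternatives were other width limits, equal numbers of peaks, stronger peaks only, 50% reciprocal overlap, summed widths, joining within 500 bp, a ratio of 1.5 and gene starts within 1 kb. Python 3.11.15, numpy 2.4.6, pandas 2.3.3 and scipy 1.17.1 were used. Locus building was tested on simulated data.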

Additional observations from a re-analysis of the deposited data

How the results depend on the processing

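No paired analysis was possible because each genotype has 1 combined peak list, and for the same reason no library could be left out. In each alternative that did not force equal numbers, loci broad in WT only outnumbered those broad in KO only, and the median log2 KO/WT width stayed below 0. With limits of 2500 and 4000 bp, broad peaks numbered 1595 and 165 in KO and 2047 and 239 in WT, loci broad in both 1165 and 127, in KO only 426 and 38, and in WT only 876 and 112, with 336 and 33 wider in KO and 689 and 96 wider in WT. The promoter CpG ratio was then 0.806 and 0.759, and the summit distance at 4000 bp 25 bp. In the main analysis, this median was -0.088 over the 1132 broad loci with a peak in both lists, and 58.8% of broad loci lay over a gene start. Taking the 684 widest peaks of each list forced equal numbers and raised the WT limit to 3221 bp. Then 274 loci were broad in KO only, 274 in WT only and 409 in both. Of the broad loci, 149 were wider in KO and 276 wider in WT, and the median log2 width was -0.034. With peaks under 500 bp apart joined, there were 1788 KO and 2312 WT broad peaks, 1411 loci broad in both, 370 in KO only and 898 in WT only, 284 wider in KO and 827 wider in WT, and 55.6% over a gene start. With summed widths, 776 loci were broad in both and 126 in KO only, 29 were wider in KO and 140 wider in WT, and the median was -0.048. Without chromosome 19, chosen after seeing the data, the median was -0.065. The larger changes in counts follow from the width limit itself and from joining pieces.

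Of 41 named loci called different, 25 lost the call with summed widths and 24 with joined peaks, and 16 kept it in the same direction under each. With joined peaks the log2 KO/WT width turned to -0.71 at Actg1, -0.032 at Tspan5, -0.12 at Trio, -0.012 at Tbx3, -0.033 at Dbp with Car11 and 0.064 at the tRNA cluster on chromosome 11. With summed widths it turned to -0.011 at Ccn1 and -0.011 at the narrower Neat1 locus.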
